A study of Mus musculus with 10 samples.

Results

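The 9 genes described here are markers of lymphocytes and natural killer (NK) cells, chosen by name. Cd3e, Cd4 and Cd8a mark T cells, Nkg7, Klrk1, Il2rb, Gzma and Ncr1 mark NK cells and other cytotoxic lymphocytes, and Cd79a marks B cells. They were read in prostate tumours of athymic mice, as 9 of 47069 genes listed in the count files, and 8 of them were among the 17644 genes tested. In tumours of the line CP1, 5 of the 8 tested markers were called lower than in tumours of the line P1, all of them NK, cytotoxic or CD8 genes, where 22.4% of all tested genes were called lower and 44.8% in either direction. Among the 5, Ncr1, Nkg7, Cd8a and Gzma passed the filter on low counts through other lines. At most 1 CP1 tumour reached its level, so that count is a description. In tumours of the line CP2, Ncr1, Nkg7, Klrk1, Cd4 and Il2rb were called higher than in CP1, as were 21.3% of all tested genes. The Cd4 call held in 15 of 19 alternative settings, those of the other markers in all 19. Against P1, Il2rb was called higher in CP2, as were 28.3% of all genes, and Gzma and Cd8a lower, as were 28.4%.

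All tumours were orthografts, that is, cultured mouse prostate cancer cells injected and grown in an anterior prostate lobe of male CD-1 Nude hosts. P1 (n = 3 tumours) was derived from a prostate tumour of a donor aged 14 months. CP1 (n = 3) and CP2 (n = 4) were derived from prostate tumours of donors aged 6 and 8 months that carried a deletion of Ctnnb1 exon 3, which stabilises beta-catenin. P1 and the CP lines differ in genotype by more than this deletion, and each line came from a single donor tumour, so line, genotype and donor age cannot be told apart. Which host gave which library is not labelled. The p-values hence cover only the spread between these samples, which may be technical. CP2 replicate 1 carries a title naming CP1 but tissue and source labels naming CP2, and it was kept in CP2. Leaving it out changed no call of a marker.

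NK cells kill without an antigen receptor of their own and read the balance of activating and inhibitory receptors on their surface, whereas T cells and B cells recognise antigen through rearranged receptors. Nude mice lack a normal thymus, in which T cells mature, and keep NK cells and B cells. T cells in such hosts are few and arise outside the thymus. In whole-tumour RNA, fewer cells of a type and less RNA per cell cannot be told apart, and the RNA does not say which cells hold a transcript.

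Libraries held 18800912 to 37180721 counts, so that 1 count was worth 0.0308 to 0.0514 CPM, the unit of level used here, which divides counts by a TMM-scaled library size. Some libraries stood apart. P1 replicate 2 was the highest of the P1 tumours for 8 of the 9 markers, all but Cd4. Seminal vesicle secretory transcripts made up 1.79% to 14.9% of the P1 libraries, most in P1 replicate 1, and 0.168% or less of the CP libraries. Ptprc, which encodes the leukocyte surface protein CD45, stood at 24.6 to 33.1 CPM in P1, at 13.0 to 26.0 CPM in CP1, lowest in CP1 replicate 3, and at 34.9 to 48.2 CPM in CP2. It was higher in CP2 than in CP1 by a log2 fold change of 1.01 ± 0.23 (adjusted p = 0.00607) and was not called in either CP line against P1 (adjusted p = 0.0998 and 0.0971). A gene is called here at a Benjamini-Hochberg adjusted p below 0.05 in edgeR's quasi-likelihood test, and fold changes carry their SE.

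The promoters of the cytotoxic markers are shown first, since the lymphocyte factors of the Runx, T-box, Stat and Ets families are known regulators of such genes. Windows of 250 bases before the RefSeq start site were available for 7 markers (build GRCm38.p6). Each was searched on both strands for TGTGGT, the Runx core, GGTGTGA for T-box factors, TTCNNNGAA for Stat factors and AGGAAG for Ets factors. The 4 windows that held a Runx core are printed 5′ to 3′ on the strand of the gene, with capitals marking every match to any of the 4 motifs. They lie at chr7:4337474-4337723 for Ncr1 (plus strand), chr13:113100982-113101231 for Gzma (minus), chr7:43436888-43437137 for Nkg7 (plus) and chr6:129623865-129624114 for Klrk1 (minus).
Ncr1: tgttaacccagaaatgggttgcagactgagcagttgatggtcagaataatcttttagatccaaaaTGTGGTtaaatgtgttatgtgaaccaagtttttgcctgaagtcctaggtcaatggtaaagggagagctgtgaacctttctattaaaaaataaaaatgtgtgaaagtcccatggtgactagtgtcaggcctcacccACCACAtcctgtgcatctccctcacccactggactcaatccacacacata
Gzma: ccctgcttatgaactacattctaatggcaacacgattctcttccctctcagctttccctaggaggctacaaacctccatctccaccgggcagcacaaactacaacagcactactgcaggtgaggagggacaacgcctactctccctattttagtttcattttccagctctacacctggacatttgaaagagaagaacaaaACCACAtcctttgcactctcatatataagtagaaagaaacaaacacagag
Nkg7: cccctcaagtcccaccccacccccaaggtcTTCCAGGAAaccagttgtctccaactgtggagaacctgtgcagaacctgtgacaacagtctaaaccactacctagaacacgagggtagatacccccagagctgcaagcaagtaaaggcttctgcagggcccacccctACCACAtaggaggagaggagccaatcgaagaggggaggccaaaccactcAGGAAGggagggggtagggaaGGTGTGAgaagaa
Klrk1: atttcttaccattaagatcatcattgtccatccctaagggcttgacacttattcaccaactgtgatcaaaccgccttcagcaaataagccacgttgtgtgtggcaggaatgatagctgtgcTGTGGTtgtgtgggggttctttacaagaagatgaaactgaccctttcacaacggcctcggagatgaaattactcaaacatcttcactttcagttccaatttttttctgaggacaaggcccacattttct
The Runx core was found in 4 of the 7 windows, those of Ncr1, Gzma, Nkg7 and Klrk1, and in 14% of 32851 windows of the same length. It was not found in the windows of Cd3e, Cd8a and Cd79a. In Ncr1 and in Gzma it lay at the same distance, from 50 to 45 bases before the start site, and Ncr1 held another copy from 185 to 180 bases before it. The T-box letters were found in the window of Nkg7 alone, against 3.33% of all windows, and the Stat letters likewise, against 7.02%. The Ets letters occurred in 3 windows, those of Nkg7, Cd3e and Cd79a, against 29.5% of all windows. The windows of Nkg7, Cd3e and Cd79a reach past the gene starts in the GENCODE annotation used for the gene coordinates below. The T-box and Ets matches of Nkg7 and the Ets match of Cd79a lie within the genes as annotated there. A match describes the letters and shows no bound factor.

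Ncr1 (ENSMUSG00000062524, GRCm38 chromosome 7: 4337724 to 4345164) encodes NKp46, an activating receptor found almost only on NK cells and related innate lymphocytes. The P1 tumours held 1.32, 2.09 and 1.28 CPM of it, those of CP1 0.141, 0.0325 and 0.284 CPM and those of CP2 3.70, 3.39, 3.24 and 2.00 CPM. Every CP1 tumour was below every P1 tumour, and the lowest CP2 tumour lay just under the highest P1 tumour. CP1 held only 12 Ncr1 counts over 3 libraries, against 145 over the P1 and 255 over the CP2 libraries. The log2 fold change was -3.38 ± 0.53 in CP1 against P1 (adjusted p = 5.781e-04) and 4.35 ± 0.52 in CP2 against CP1 (adjusted p = 1.609e-04). CP2 against P1 gave 0.97 ± 0.40, which was not called (adjusted p = 0.061), and this call was made under 6 of 19 alternative settings (adjusted p = 0.0224 to 0.25).

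Nkg7 (ENSMUSG00000004612, chromosome 7: 43437073 to 43438249) encodes a membrane protein of the cytotoxic granules of NK and CD8 T cells. Tumours of P1 held 1.57, 3.65 and 2.41 CPM of it, those of CP1 0.318, 0.260 and 0.324 CPM and those of CP2 3.03, 4.56, 4.52 and 4.10 CPM. The CP1 tumours were alike and far below all others, and the P1 and CP2 ranges overlapped. Nkg7 was lower in CP1 than in P1, at log2 -3.07 ± 0.36 (adjusted p = 9.053e-05), and higher in CP2 than in CP1 by 3.74 ± 0.35 (adjusted p = 4.117e-05). Both calls held under all 19 alternative settings. CP2 against P1 was 0.67 ± 0.29 and not called (adjusted p = 0.0706). Without P1 replicate 2 it was 1.00 and called (adjusted p = 0.0162).

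Klrk1 (ENSMUSG00000030149, chromosome 6: 129610323 to 129623864) encodes NKG2D, the activating receptor that binds stress-induced ligands on target cells. The P1 tumours held 1.63, 3.87 and 1.24 CPM of it, those of CP1 0.495, 0.812 and 0.243 CPM and those of CP2 5.96, 4.47, 3.92 and 3.54 CPM. CP1 was again lowest without overlap, whereas P1 replicate 2 reached into the CP2 range. Klrk1 was lower in CP1 than in P1, at log2 -2.10 ± 0.51 (adjusted p = 0.00756), and higher in CP2 than in CP1 by 3.08 ± 0.51 (adjusted p = 9.864e-04). The CP1 call against P1 was lost with P1 replicates 1 and 2 left out (-1.27, adjusted p = 0.103). CP2 against P1 was 0.99 ± 0.44 and not called (adjusted p = 0.082), but without P1 replicate 2 it was 1.61 (adjusted p = 0.0112).

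Il2rb (ENSMUSG00000068227, chromosome 15: 78479256 to 78495271) encodes the beta chain shared by the receptors for interleukin 2 and interleukin 15, the latter being the survival cytokine of NK cells. Tumours of P1 held 9.89, 13.2 and 7.48 CPM of it, those of CP1 7.84, 5.58 and 9.97 CPM and those of CP2 50.1, 49.9, 44.9 and 38.4 CPM. The P1 and CP1 ranges overlapped, and all CP2 tumours stood well above both. Unlike Ncr1, Nkg7 and Klrk1, Il2rb was not called in CP1 against P1 (-0.39 ± 0.24, adjusted p = 0.225). It was higher in CP2 than in P1 by log2 2.17 ± 0.24 (adjusted p = 4.249e-05) and than in CP1 by 2.56 ± 0.24 (adjusted p = 4.351e-05), under all 19 alternative settings in both cases.

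Gzma (ENSMUSG00000023132, chromosome 13: 113093825 to 113100981) encodes granzyme A, a serine protease released from cytotoxic granules. The P1 tumours held 3.51, 5.89 and 2.48 CPM of it, those of CP1 0.141, 0.422 and 0.162 CPM and those of CP2 0.411, 0.687, 1.78 and 0.372 CPM. Both CP lines were below all P1 tumours, and CP2 replicate 3 was the highest of the CP tumours. Gzma was lower in CP1 than in P1, at log2 -3.98 ± 0.68 (adjusted p = 9.948e-04), and lower in CP2 than in P1, at -2.27 ± 0.56 (adjusted p = 0.00596). CP2 against CP1 gave 1.71 ± 0.67 and was not called (adjusted p = 0.0627). It was called without CP1 replicate 2 (2.40, adjusted p = 0.0469), without CP2 replicate 4 (1.95, adjusted p = 0.0472) and with DESeq2's Wald test (1.72, adjusted p = 0.0323), and it was 0.98 without CP2 replicate 3 (adjusted p = 0.196). The call in CP2 against P1 was lost with P1 replicates 1 and 2 left out (-1.63, adjusted p = 0.118).

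**Figure D1:**
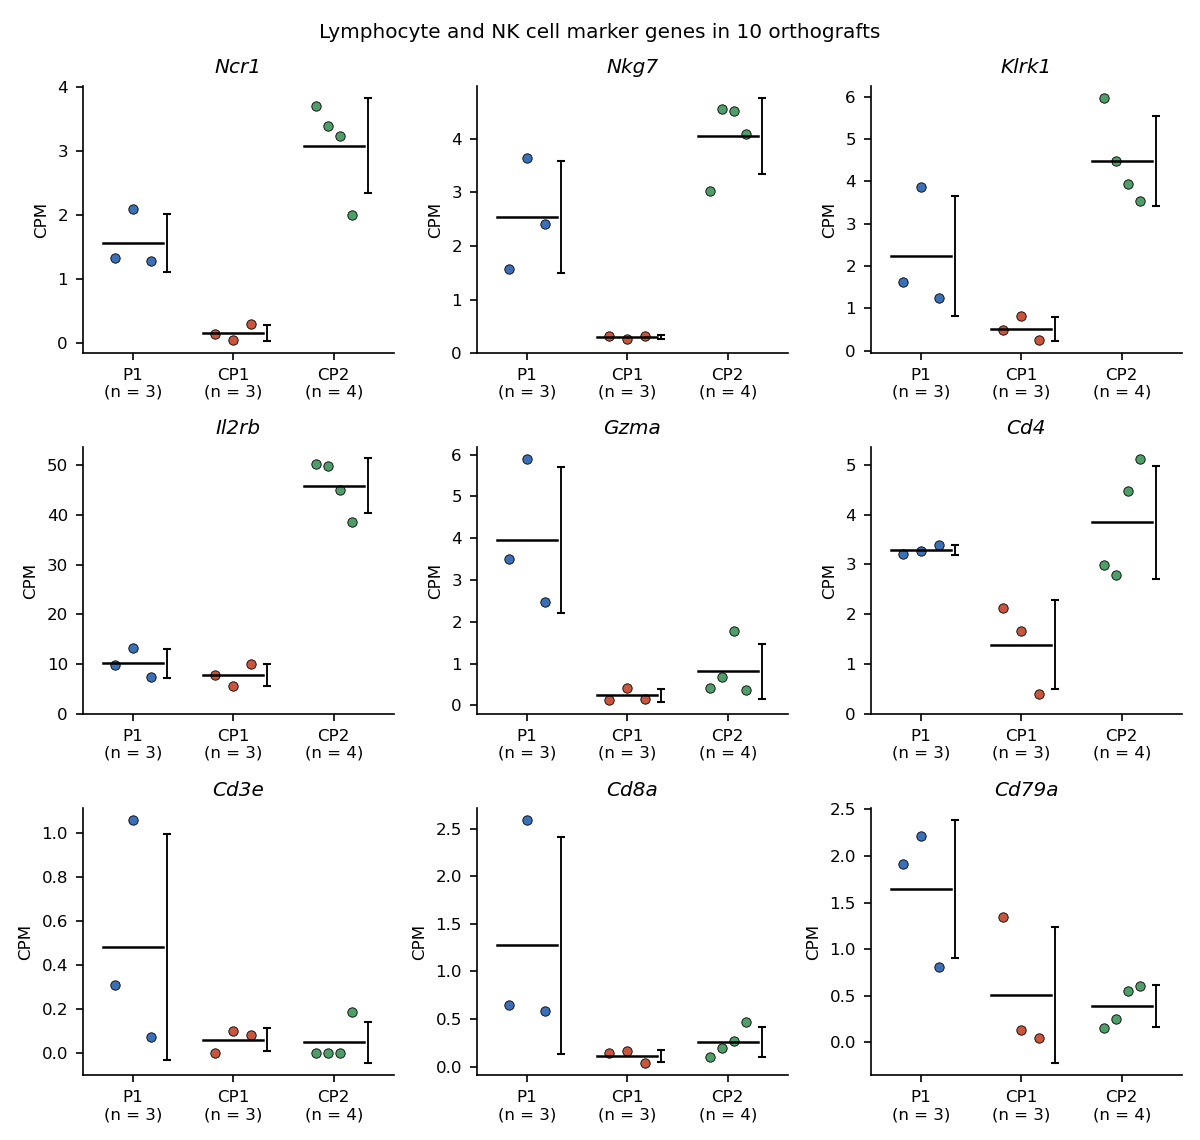
CPM (y axis, linear) of the 9 markers in P1 (n = 3), CP1 (n = 3) and CP2 (n = 4). Points are tumours, horizontal bars are means and vertical bars are SD. Ncr1, Nkg7 and Klrk1 are lowest in CP1, Il2rb is highest in CP2 at 38.4 to 50.1 CPM, and Gzma and Cd8a are highest in P1.

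Of the T cell markers, Cd3e was the scarcest. Cd3e (ENSMUSG00000032093, chromosome 9: 44998740 to 45009627), the epsilon chain of the CD3 signalling complex carried by every mature T cell, had 10, 34 and 2 counts in the P1 tumours. It had 0, 3 and 2 counts in the CP1 tumours, and 0, 0, 0 and 4 counts in the CP2 tumours. Only P1 replicate 2 reached the level the filter on low counts asks for, 0.376 CPM in 3 tumours, and Cd3e was therefore not tested. With no such filter, CP2 against P1 gave log2 -3.26 ± 1.10 (adjusted p = 0.0377) and CP1 against P1 gave -2.94 ± 1.11, not called (adjusted p = 0.0764). In the CP2 libraries 1 count equals 0.0456 to 0.0514 CPM. The limit set here, 3 counts, equals 0.137 to 0.154 CPM, and lower levels of Cd3e in a single tumour are uncertain. An antisense gene, Gm48719, overlaps 3.31% of the Cd3e exon bases, and the sources used here do not give whether counting used strand.

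Cd8a (ENSMUSG00000053977, chromosome 6: 71373427 to 71379173), the alpha chain of the CD8 co-receptor of cytotoxic T cells and of some dendritic cells, stood at 0.647, 2.59 and 0.584 CPM in P1. The CP1 tumours held 0.141, 0.162 and 0.0405 CPM and those of CP2 0.103, 0.196, 0.274 and 0.466 CPM. No CP tumour reached the lowest P1 tumour, and P1 replicate 2 was far above the other P1 tumours. Cd8a was lower in CP1 than in P1, at log2 -3.39 ± 0.76 (adjusted p = 0.00466), and lower in CP2 than in P1, at -2.26 ± 0.64 (adjusted p = 0.0124). Without P1 replicate 2 the CP2 value was -1.24 and not called (adjusted p = 0.0764). CP2 against CP1 was 1.12 ± 0.83 (adjusted p = 0.3). Cd8a passed the filter through the P1 tumours, since 0 CP1 and 1 CP2 tumours reached its level.

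Cd4 (ENSMUSG00000023274, chromosome 6: 124864692 to 124888221) encodes the co-receptor of helper T cells, which mouse dendritic cells of some kinds also carry. Tumours of P1 held 3.204, 3.27 and 3.40 CPM of it, those of CP1 2.12, 1.66 and 0.405 CPM and those of CP2 2.98, 2.80, 4.47 and 5.12 CPM. The P1 tumours were nearly equal, CP1 lay below both other lines, and the P1 and CP2 ranges overlapped. Cd4 was higher in CP2 than in CP1 by log2 1.45 ± 0.46 (adjusted p = 0.0269), a call lost without CP1 replicate 2 (adjusted p = 0.0523), CP2 replicate 3 (adjusted p = 0.0599) or CP2 replicate 4 (adjusted p = 0.0661). CP1 against P1 was -1.23 ± 0.47 and not called (adjusted p = 0.0584), and CP2 against P1 was 0.22 ± 0.43 (adjusted p = 0.678). Without CP1 replicate 1 the CP1 difference was -1.66 and called (adjusted p = 0.0267).

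Cd79a (ENSMUSG00000003379, chromosome 7: 24897381 to 24902197) encodes a signalling chain of the B cell receptor. The P1 tumours held 1.91, 2.21 and 0.803 CPM of it, those of CP1 1.34, 0.130 and 0.0405 CPM and those of CP2 0.154, 0.245, 0.547 and 0.605 CPM. CP1 replicate 1 held 38 of the 43 CP1 counts and lay within the P1 range, and the CP2 tumours were all below P1. No comparison was called. CP1 against P1 gave -1.69 ± 0.88 (adjusted p = 0.149), CP2 against P1 gave -2.06 ± 0.85 (adjusted p = 0.061), and CP2 against CP1 gave -0.37 ± 0.91 (adjusted p = 0.767). Without CP1 replicate 1, CP1 against P1 was -4.15 and called (adjusted p = 0.00246), and CP2 against P1 was -2.07 and called (adjusted p = 0.00686). In the same setting CP2 against CP1 changed sign to 2.08, not called (adjusted p = 0.0711).

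Counted over the markers, 5 of the 8 tested were called lower in CP1 than in P1 and 0 higher, where 44.8% of all tested genes were called, 22.4% of all genes in each direction. In CP2 against P1, 1 of 8 was called higher and 2 lower, against 56.7% of all genes called, 28.3% higher and 28.4% lower. In CP2 against CP1, 5 of 8 were called higher and 0 lower, against 43.3% of all genes, 21.3% higher and 21.9% lower. The median log2 fold change of the 8 markers was -2.58, 0.45 and 2.13 in the 3 comparisons, beside medians of -0.01, 0.0016 and -0.0053 over all genes tested. The values did not overlap for 6 markers in CP1 against P1, all lower in CP1, where 50.8% of all genes did not overlap, 25.5% with CP1 higher and 25.3% with it lower. They did not overlap for 4 in CP2 against P1, Il2rb higher and Cd8a, Gzma and Cd79a lower, against 60.1% of all genes, 30.5% higher and 29.7% lower. They did not overlap for 5 in CP2 against CP1, all higher in CP2, against 52.3% of all genes, 26.7% higher and 25.6% lower. Nkg7 and Ncr1 passed the filter through P1 and CP2, as 0 CP1 tumours reached its level. Gzma did so too, with 1 CP1 tumour at that level. Cd8a passed it through P1, where it was highest, with 0 CP1 tumours and 1 CP2 tumour at that level. Such genes could be tested only because a line held them at a high level, so these counts are a description, and they say nothing of Cd3e. The 2 comparisons with P1 share the P1 tumours.

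**Figure D2:**
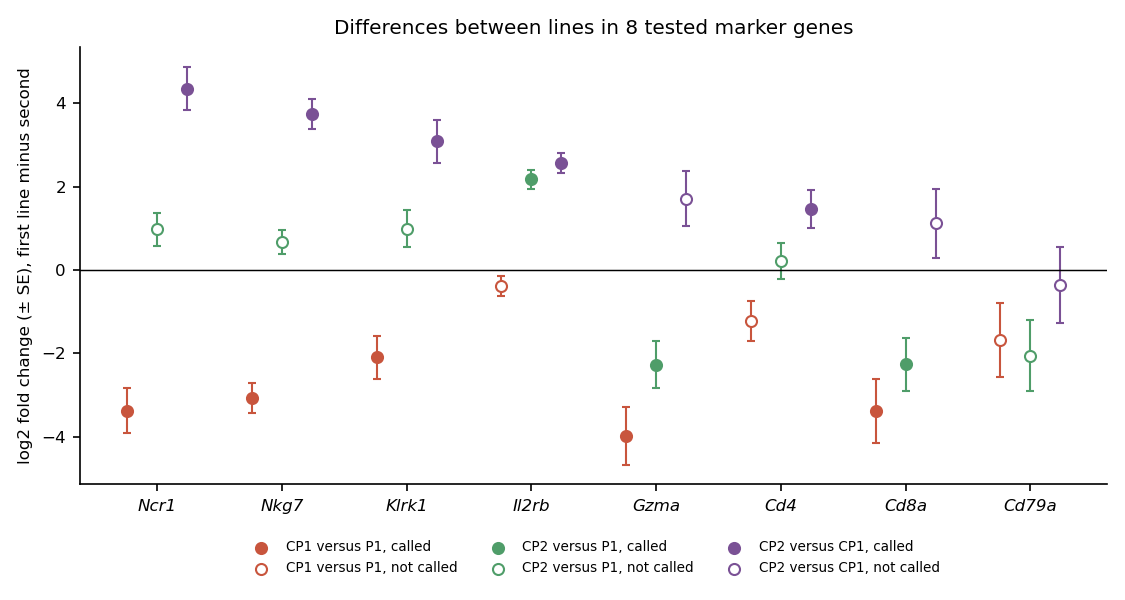
Log2 fold change ± SE (y axis, first line minus second) of the 8 tested markers (x axis) in CP1 against P1, CP2 against P1 and CP2 against CP1. Filled points passed an adjusted p below 0.05. The CP2 against CP1 values run from -0.37 for Cd79a to 4.35 for Ncr1, and Gzma is below 0 in both comparisons with P1.

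Between genes, levels were set side by side only per kilobase of exon. In P1 the order was Gzma (3.94 ± 1.74 CPM per kb), Nkg7 (2.78 ± 1.144), Il2rb (2.37 ± 0.665), Cd79a (1.13 ± 0.510), Ncr1 (1.02 ± 0.296), Cd4 (0.816 ± 0.0239), Cd8a (0.350 ± 0.313), Klrk1 (0.313 ± 0.197) and Cd3e (0.118 ± 0.126), as mean ± SD of 3 tumours. Of the 8 neighbouring pairs, only Il2rb and Cd79a, and Cd4 and Cd8a, stood apart by more than the sum of their SDs. In CP1 Il2rb led at 1.82 ± 0.511 CPM per kb, and no pair below it stood apart by that measure, from Cd79a at 0.346 ± 0.499 to Cd3e at 0.0146 ± 0.0128. In CP2 Il2rb led at 10.7 ± 1.28 CPM per kb, ahead of Nkg7 (4.43 ± 0.779), Ncr1 (2.00 ± 0.484) and Cd4 (0.953 ± 0.281), each apart from the next by more than the sum of SDs. Gzma, the first of 9 in P1, was the fifth in CP2 at 0.808 ± 0.656 CPM per kb and not apart from Cd4 or Klrk1 (0.623 ± 0.148). Cd79a, Cd8a and Cd3e closed the CP2 order at 0.266 ± 0.152, 0.0714 ± 0.0424 and 0.0114 ± 0.0228 CPM per kb.

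The ratios of Nkg7 and of Klrk1 to Ncr1 overlapped between the tumours of P1 and CP2, while those of Gzma, Il2rb, Klrd1 and Prf1 did not. Over the summed counts, Nkg7 stood to Ncr1 as 1.61 to 1 in P1 (1.19 to 1.89 in single tumours) and as 1.33 to 1 in CP2 (0.819 to 2.05). Klrk1 stood to Ncr1 as 1.46 to 1 in P1 and 1.45 to 1 in CP2. Gzma stood to Ncr1 as 2.56 to 1 in P1 (1.94 to 2.82) and as 0.271 to 1 in CP2 (0.111 to 0.549), or 0.163 to 1 without CP2 replicate 3. Il2rb stood to Ncr1 as 6.54 to 1 in P1 (5.86 to 7.47) and as 14.9 to 1 in CP2 (13.5 to 19.2). Klrd1, which encodes CD94, stood to Ncr1 as 1.24 to 1 in P1 (1.05 to 1.69) and as 2.06 to 1 in CP2 (1.77 to 2.29). Prf1, the gene of perforin, which opens pores in target cells, stood to Ncr1 as 6.02 to 1 in P1 (4.48 to 9.17) and as 57.3 to 1 in CP2 (43.0 to 76.7). No ratio to Ncr1 is given for CP1, where single tumours held 1 to 7 Ncr1 counts. The ratios were formed after values had been seen and carry no test.

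Prf1 and Gzmb, which with Gzma encode the classical granule proteins, differed from Gzma in direction between CP2 and P1. Prf1 measured 7.76, 9.36 and 11.7 CPM in P1 tumours, 0.424, 1.56 and 1.499 CPM in CP1 tumours and 159, 222, 169 and 154 CPM in CP2 tumours. Gzmb, the gene of granzyme B, which triggers apoptosis, measured 15.96, 22.6 and 18.8 CPM in P1 tumours, 0.212, 1.137 and 1.05 CPM in CP1 tumours and 70.0, 115, 86.2 and 89.7 CPM in CP2 tumours. For both genes the 3 lines did not overlap. Prf1 was higher in CP2 than in P1 by log2 4.19 ± 0.32 (adjusted p = 4.887e-06) and Gzmb by 2.24 ± 0.32 (adjusted p = 2.392e-04), while Gzma was lower there. Summed Gzmb counts were 109 times the Gzma counts in CP2 (48.5 to 241 in single tumours), 4.74 times in P1 (3.84 to 7.59) and 3.19 times in CP1 (1.5 to 6.5). CP2 replicate 3 held 39 of the 69 Gzma counts of CP2, and without it the ratio was 188. Granzyme genes near Gzmb are close copies, and counting could have split their reads.

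**Figure D3:**
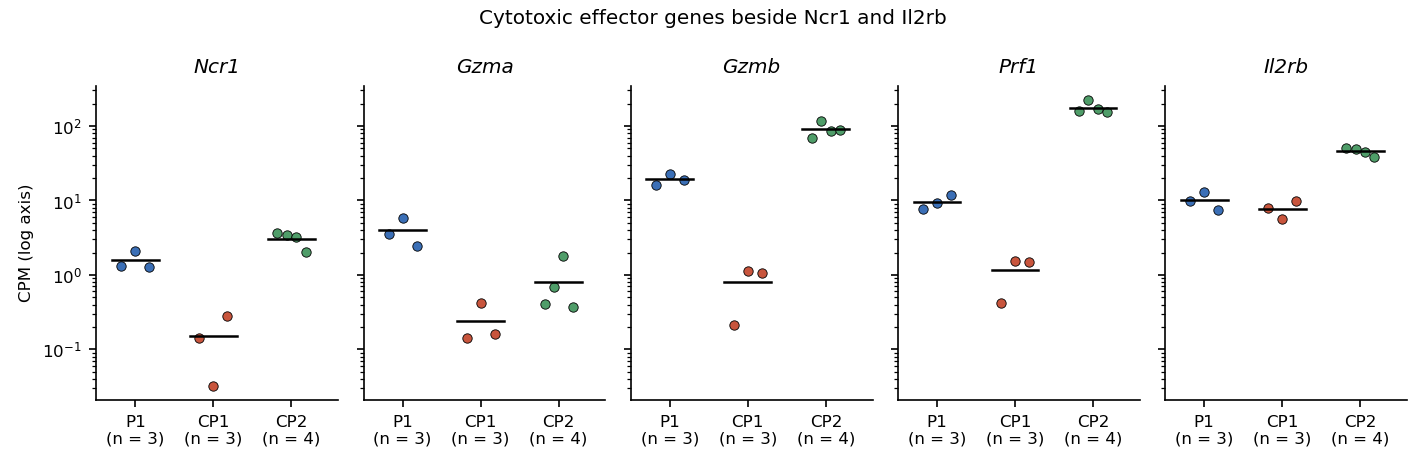
CPM (y axis, log scale) of Ncr1, Gzma, Gzmb, Prf1 and Il2rb in each tumour of P1, CP1 and CP2; horizontal bars are means. In CP2, Prf1 stands at 154 to 222 CPM and Gzma at 0.372 to 1.78 CPM, whereas in P1 they stand at 7.76 to 11.7 and 2.48 to 5.89 CPM.

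Of 16 tested genes in a list of NK receptors and regulators, 1 was called higher and 8 lower in CP1 against P1, 9 higher and 2 lower in CP2 against P1, and 12 higher and 1 lower in CP2 against CP1. Their median log2 fold changes were -1.73, 1.66 and 3.21. This list includes Cma1, which is also in the list of mast cell genes. Cma1 was among the genes called higher in CP2 than in CP1, by 3.22 ± 0.68 (adjusted p = 0.004), and was not called in CP2 against P1. Over all tested genes, 22.4%, 28.3% and 21.3% were called higher and 22.4%, 28.4% and 21.9% lower in these 3 comparisons. Genes of this and the other lists could likewise pass the filter on low counts only through a line that held them at a high level. Klra7, for example, stood at 1.72 to 2.21 CPM in CP2, at most 0.256 CPM in P1 and at most 0.162 CPM in CP1. The counts and medians of the lists are therefore a description too. Klrd1, whose product is the partner of the NKG2 receptors, was lower in CP1 than in P1, at -2.16 ± 0.41 (adjusted p = 0.00178). Klrg1, an inhibitory receptor of mature NK and T cells, rose from 0.560 ± 0.191 CPM in P1 to 9.09 ± 1.25 CPM in CP2, by 4.00 ± 0.34 (adjusted p = 7.991e-06). Klra4, of the Ly49 receptor family, was higher than in P1 in CP1 by 2.45 ± 0.72 (adjusted p = 0.0184) and in CP2 by 3.83 ± 0.72 (adjusted p = 0.00134), and thus did not share the low CP1 level of Ncr1. The CP1 rise of Klra4 was not called without CP1 replicate 3 (1.73, adjusted p = 0.0766). Ly49 genes are close copies and their counts are uncertain. The genes called lower in CP2 than in P1 were Itga2, at -2.55 ± 0.38 (adjusted p = 2.737e-04), and Ncam1, at -1.24 ± 0.22 (adjusted p = 9.421e-04), an integrin chain and an adhesion molecule that other cell types also express. The means of Itga2 and Ncam1 in P1 were 99.95 and 174 CPM, far above the 1.56 CPM of Ncr1.

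Of 10 tested cytotoxic effector genes, 0 were called higher and 6 lower in CP1 against P1, 5 higher and 3 lower in CP2 against P1, and 7 higher and 0 lower in CP2 against CP1, with medians of -2.17, 0.75 and 2.27. The shares of all tested genes were again 22.4%, 28.3% and 21.3% higher and 22.4%, 28.4% and 21.9% lower. Xcl1, a chemokine of activated NK and T cells, was lower than in P1 in CP1, at -3.75 ± 0.61 (adjusted p = 6.779e-04), and in CP2, at -3.08 ± 0.53 (adjusted p = 7.646e-04), in the same directions as Gzma. Tnfsf10, which encodes the death ligand TRAIL, averaged 23.2 CPM in P1, 6.42 CPM in CP1 and 5.17 CPM in CP2. It was lower in CP2 than in P1, at -2.16 ± 0.42 (adjusted p = 0.0015). The call was lost with P1 replicates 1 and 2 left out (-0.91, adjusted p = 0.0993).

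Of 16 tested T cell receptor and signalling genes, 1 was called higher and 9 lower in CP1 against P1, 5 higher and 6 lower in CP2 against P1, and 10 higher and 2 lower in CP2 against CP1, with medians of -2.14, 0.28 and 1.51. All tested genes gave shares of 22.4%, 28.3% and 21.3% higher and 22.4%, 28.4% and 21.9% lower. The counts in CP2 against P1 were near these shares. Cd3g, the gamma chain that assembles with the Cd3e product, had 248 counts over the CP2 tumours, where Cd3e had 4, and 77 and 46 counts of the same genes in P1. It stood at 2.21, 3.83, 3.56 and 2.28 CPM in CP2 against 0.106, 0.0974 and 0 CPM in CP1, a difference of log2 5.30 ± 0.65 (adjusted p = 1.802e-04). Zap70, the kinase that relays the signal of the CD3 chains, rose from 2.05 ± 0.11 CPM in P1 to 18.0 ± 1.9 CPM in CP2, by 3.13 ± 0.20 (adjusted p = 1.687e-06). Ctla4, an inhibitory receptor of activated T cells, rose from 0.189 ± 0.066 to 5.51 ± 1.51 CPM, by 4.85 ± 0.42 (adjusted p = 9.874e-06). Trbc2, a constant region of the T cell receptor beta chain, was lower than in P1 in CP1, at -2.82 ± 0.29 (adjusted p = 4.241e-05), and in CP2, at -1.79 ± 0.25 (adjusted p = 2.002e-04), but Trbc2 and Trbc1 are close copies and uncertain. Bcl11b, a transcription factor of T cell commitment that epithelia also express, stood at 14.1 to 19.6 CPM in P1 and at 1.05 CPM or less in the CP tumours.

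Trdc, the constant region of the delta chain of gamma-delta T cells, measured 0.616, 2.06 and 0.365 CPM in P1 tumours, 3.36, 6.40 and 1.42 CPM in CP1 tumours and 14.2, 15.02, 14.1 and 24.6 CPM in CP2 tumours. All CP2 tumours were above the rest, although Cd3e was at 0 in 3 of them. Trdc rose in CP2 against P1 by log2 4.05 ± 0.67 (adjusted p = 5.794e-04). Its rise in CP1 against P1, 1.87 ± 0.65 (adjusted p = 0.0391), was lost when P1 replicate 1 or 3, CP1 replicate 1 or 2, or CP2 replicate 1, 2 or 3 was left out (adjusted p = 0.0532 to 0.161). Tcrg-C4, a gamma chain constant region, rose in CP2 against P1 by 1.42 ± 0.29 (adjusted p = 0.00199). Trdc lies within the alpha chain locus, where overlapping transcripts make its counts uncertain.

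**Figure D4:**
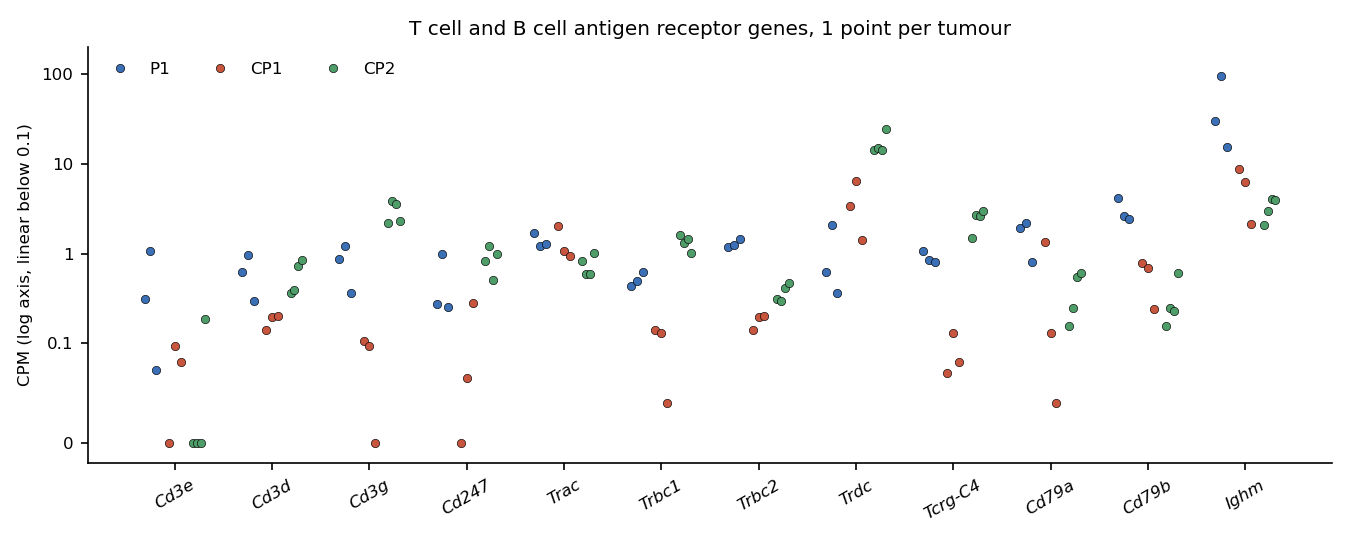
CPM (y axis, log scale, linear below 0.1) of T cell and B cell antigen receptor genes in each tumour. In CP2, Cd3e is at 0 in 3 of 4 tumours while Cd3g stands at 2.21 to 3.83 CPM and Trdc at 14.1 to 24.6 CPM. Ighm is highest in the P1 tumours. Cd79a is highest in P1 on average, with CP1 replicate 1 within the P1 range.

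Of 13 tested B cell genes other than Cd79a, 11 were called lower and 0 higher in CP1 against P1, 8 lower and 0 higher in CP2 against P1, and 3 higher and 0 lower in CP2 against CP1, with medians of -2.04, -2.11 and -0.26. Among all tested genes, 22.4%, 28.4% and 21.9% were called lower and 22.4%, 28.3% and 21.3% higher. Ighm, the heavy chain of immunoglobulin M, measured 30.1, 95.9 and 15.4 CPM in P1 tumours, 8.83, 6.27 and 2.11 CPM in CP1 tumours and 2.06, 2.99, 4.01 and 3.91 CPM in CP2 tumours. It was lower than in P1 in CP1, at log2 -3.04 ± 0.69 (adjusted p = 0.00495), and in CP2, at -3.86 ± 0.65 (adjusted p = 6.244e-04). The CP1 call was lost with P1 replicates 1 and 2 left out (-1.46, adjusted p = 0.101). Jchain, which joins immunoglobulins in plasma cells, was lower than in P1 in CP2, at -5.30 ± 1.06 (adjusted p = 0.00188). Of 5 tested plasma cell genes, 2 were called lower in CP1 and 4 in CP2 against P1, and 0 higher. Of the 3 B cell genes higher in CP2 than in CP1, the transcription factor genes Pou2af1 and Spib rose by 2.80 ± 0.55 (adjusted p = 0.00262) and 2.01 ± 0.49 (adjusted p = 0.00849). Spib is also active in dendritic cells.

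Of the genes for ligands of NKG2D, the product of Klrk1, the 4 called in CP1 against P1 were all higher there, where Klrk1 was lowest. Of 7 tested genes in a list of Klrk1 adaptors and ligands, 4 were called higher and 0 lower in CP1 against P1, 3 higher and 0 lower in CP2 against P1, and 0 higher and 2 lower in CP2 against CP1, with medians of 2.75, 0.82 and -0.38. Beside them, 22.4%, 28.3% and 21.3% of all tested genes were called higher and 22.4%, 28.4% and 21.9% lower. Raet1d, a ligand of the RAE-1 family, measured 0.370, 0.218 and 0.292 CPM in P1 tumours, 4.17, 3.47 and 5.51 CPM in CP1 tumours and 2.57, 3.58, 2.97 and 4.38 CPM in CP2 tumours. It rose by log2 3.88 ± 0.33 in CP1 (adjusted p = 1.271e-05) and 3.50 ± 0.32 in CP2 (adjusted p = 1.245e-05). Ulbp1, another ligand, stood at 5.05 ± 2.31 CPM in P1, 35.9 ± 1.6 in CP1 and 20.6 ± 1.4 in CP2. Its call as lower in CP2 than in CP1 (-0.80 ± 0.26, adjusted p = 0.0297) held in 11 of 19 alternative settings. That call was lost when any single CP tumour was left out (adjusted p = 0.0534 to 0.0729). H60b, named after its values were seen as it completes the 4, rose by 2.76 ± 0.38 in CP1 against P1 (adjusted p = 2.568e-04). H60c was higher in CP1 than in P1 by 4.05 ± 0.63 (adjusted p = 5.505e-04) and lower in CP2 than in CP1, at -3.23 ± 0.55 (adjusted p = 0.0012). Raet1e, also a ligand gene, was not called in CP1 against P1. It measured 1.45, 28.3 and 1.79 CPM in P1 tumours and 8.87, 6.495 and 9.195 CPM in CP1 tumours. Whether the levels of these ligands and of Klrk1 are linked was not tested. RAE-1 genes are close copies and their counts are uncertain.

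Of 8 tested partners and cytokines of the Il2rb product, 0 were called higher and 5 lower in CP1 against P1, 3 higher and 1 lower in CP2 against P1, and 6 higher and 0 lower in CP2 against CP1, with medians of -1.20, 0.13 and 1.54. Shares over all tested genes were 22.4%, 28.3% and 21.3% higher and 22.4%, 28.4% and 21.9% lower. Il2ra, the alpha chain of the high-affinity receptor, rose in CP2 against P1 by log2 2.41 ± 0.33 (adjusted p = 1.590e-04), and Il2rg, the shared gamma chain, by 1.45 ± 0.36 (adjusted p = 0.00648), a call lost with P1 replicates 1 and 2 left out (adjusted p = 0.138). Il15ra, which presents interleukin 15, averaged 11.4 CPM in P1, 3.83 CPM in CP1 and 4.95 CPM in CP2. It was lower in CP2 than in P1, at -1.20 ± 0.24 (adjusted p = 0.00192), a call likewise lost in that setting (-0.87). Il15 itself measured 13.1, 18.9 and 19.8 CPM in P1 tumours, 4.10, 4.38 and 4.70 CPM in CP1 tumours and 26.2, 19.1, 24.2 and 24.3 CPM in CP2 tumours. It was lower in CP1 than in P1, at -1.97 ± 0.19 (adjusted p = 2.494e-05), and higher in CP2 than in CP1 by 2.42 ± 0.18 (adjusted p = 1.246e-05). CP2 against P1 was called at 0.44 ± 0.17 (adjusted p = 0.0439), a call lost with DESeq2's size factors (adjusted p = 0.0529) and held in only 3 of 19 alternative settings. Il15, Ncr1, Nkg7 and Klrk1 were thus all lowest in the CP1 tumours, whereas Il2rb was not called between CP1 and P1. Whether their levels are linked was not tested.

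Of 12 tested cytokines that recruit or activate lymphocytes, 1 was called higher and 7 lower in CP1 against P1, 2 higher and 5 lower in CP2 against P1, and 5 higher and 3 lower in CP2 against CP1, with medians of -1.80, -1.20 and 1.26. By comparison, 22.4%, 28.3% and 21.3% of all tested genes were called higher and 22.4%, 28.4% and 21.9% lower. Cxcl9, which draws CXCR3-bearing T and NK cells, measured 28.1, 199 and 12.5 CPM in P1 tumours, 0.742, 0.942 and 0.203 CPM in CP1 tumours and 9.97, 19.2, 39.5 and 28.8 CPM in CP2 tumours. P1 replicate 2, the highest P1 tumour for Ncr1, Gzma, Cd3e and Cd8a, was also the highest for Cxcl9. Cxcl11, a ligand of the same receptor, was lower in CP1 than in P1, at log2 -6.83 ± 0.96 (adjusted p = 2.847e-04), and higher in CP2 than in CP1 by 4.82 ± 0.91 (adjusted p = 0.00216). That rise was not called with CP1 replicates 2 and 3 left out (5.36, adjusted p = 0.0645). Cx3cl1, a chemokine for cytotoxic lymphocytes, was lower in CP2 than in P1, at -2.54 ± 0.11 (adjusted p = 2.982e-07). Tnfsf13b, which encodes the B cell survival factor BAFF, rose from 1.95 ± 0.85 CPM in P1 to 78.8 ± 13.0 CPM in CP1, by 5.33 ± 0.32 (adjusted p = 2.165e-06). In CP1 against P1, Cd79a was not called and 11 of 13 other tested B cell genes were called lower. Tnfsf13b was also higher in CP2 than in P1, by 2.39 ± 0.28 (adjusted p = 7.214e-05).

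**Figure D5:**
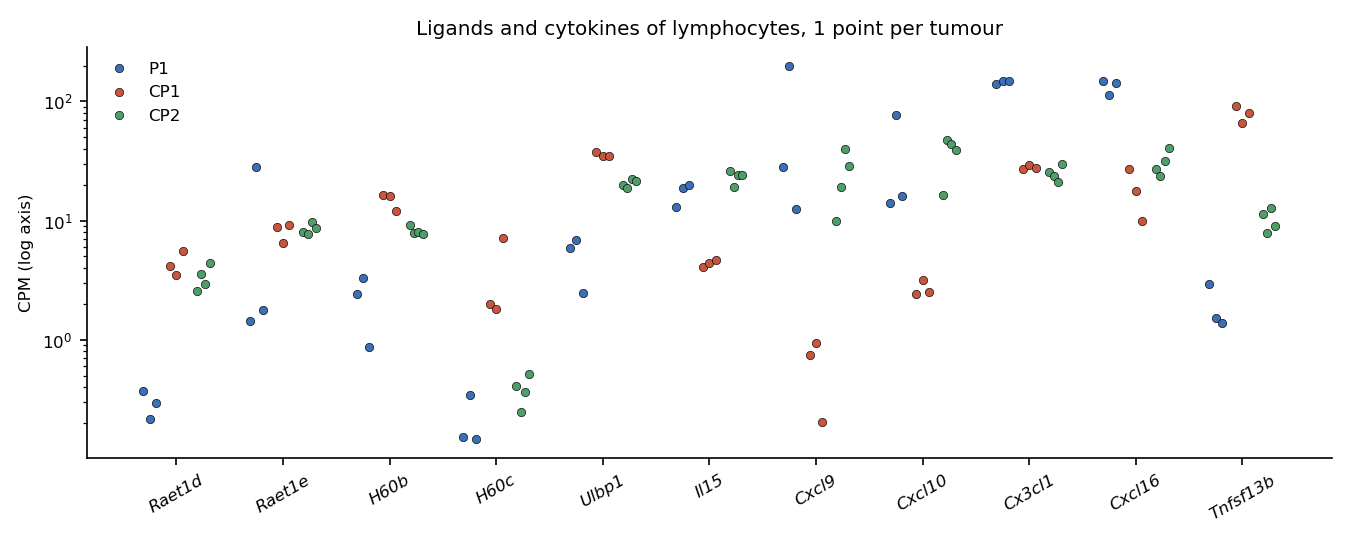
CPM (y axis, log scale) of Klrk1 ligands (Raet1d to Ulbp1), of Il15, and of chemokines and Tnfsf13b in each tumour. Raet1d and Ulbp1 are lowest in P1, Il15 and Cxcl9 are lowest in CP1 (4.10 to 4.70 and 0.203 to 0.942 CPM), and Tnfsf13b is highest in CP1.

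Markers were also set against Ptprc as a measure of leukocyte RNA. The ratio of Ncr1 to Ptprc was 0.0519 ± 0.0112 in P1, 0.00955 ± 0.01081 in CP1 and 0.0764 ± 0.0263 in CP2 (mean ± SD). Gzma to Ptprc was 0.129 ± 0.043, 0.0120 ± 0.0063 and 0.0192 ± 0.0140, and Cd8a to Ptprc was 0.0406 ± 0.0327, 0.00517 ± 0.00193 and 0.00598 ± 0.00287, both without overlap between P1 and either CP line. Nkg7 to Ptprc was 0.0855 ± 0.0328, 0.0161 ± 0.0077 and 0.0983 ± 0.0233, lowest in CP1 without overlap. Il2rb to Ptprc was 0.335 ± 0.054, 0.436 ± 0.288 and 1.13 ± 0.29, highest in CP2. Cd4 to Ptprc lay closer together, at 0.112 ± 0.022, 0.0612 ± 0.0266 and 0.0904 ± 0.0138, although the CP1 range (0.0312 to 0.0816) lay below that of P1 (0.0986 to 0.138). Of 10 pan-leukocyte genes, 3 were called higher and 2 lower in CP1 against P1, and 3 higher and 1 lower in CP2 against P1. For all tested genes the shares were 22.4% in each direction in CP1, and 28.3% higher and 28.4% lower in CP2. The pan-leukocyte counts in CP1 were near these shares. Summed pan-leukocyte levels were 536 to 991 CPM in P1, 436 to 657 in CP1 and 535 to 678 in CP2, with no gene of the list at 0 in all tumours of a line. Within that list Cd52 and Cd53 ran in opposite directions, at 251 and 30.9 CPM on average in P1 and 9.75 and 185 CPM in CP1. Of 12 macrophage genes 1 was called higher and 1 lower in CP1, and 0 higher and 1 lower in CP2, against P1. Summed macrophage levels were 1406 to 1811, 728 to 1556 and 1163 to 1735 CPM. Epithelial genes differed between the lines, with 7 and 8 of 9 called lower in CP1 and CP2 against P1 and summed levels of 9500 to 18970, 769 to 1871 and 252 to 450 CPM. Of 11 dendritic cell genes, which matter for Cd4 and Cd8a, 0 and 2 were called higher and 4 and 4 lower in CP1 and CP2 against P1, with summed levels of 200 to 263, 46.9 to 132 and 83.7 to 122 CPM. The part of these lists in the marker differences was not tested.

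Marker pairs were also compared over the 10 tumours by Pearson correlation of log2 CPM, as a description, since the tumours share lines and library depth. Nkg7 and Ncr1 gave r = 0.96, Nkg7 and Klrk1 gave r = 0.91, and Gzma and Cd8a gave r = 0.85. Il2rb and Gzma gave r = -0.04. After each line's mean was taken off, Il2rb and Ncr1 gave r = 0.91, Nkg7 and Ncr1 gave r = 0.35 and Nkg7 and Klrk1 gave r = 0.20, so the last 2 pairs were alike mainly between lines. Among genes averaging 1 CPM or more, those most like each marker over the 10 tumours were Zfp953 for Ncr1 (r = 0.98), Zfp607b for Nkg7 (0.99), Inpp4a for Klrk1 (0.98) and Snx25 for Il2rb (0.99). They were Btbd9 for Gzma (0.96), Nemp2 for Cd4 (0.97), Il18bp for Cd8a (0.96) and Rnf122 for Cd79a (0.94). Of the next most alike, Cd96, the gene of a surface protein of NK and T cells, was the third for Klrk1 (0.97). Cd22, the gene of a surface protein of B cells, was the second for Cd4 (0.97).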

How the data were processed

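Counts of reads per Ensembl gene were deposited by the authors as whole numbers, not normalised, 1 file per tumour. The submitters' processing notes name TopHat2 2.1.0 and Bowtie2 2.2.6.0, HTSeq 0.6.0 and build GRCm38.p3; parameters and strandedness are not given in the sources used here. GENCODE M21 gave symbols for 46574 of 47069 IDs. Low genes were removed with filterByExpr (minimum count 10, minimum total 15), leaving 17644. TMM scaling and a single quasi-likelihood fit of all 10 tumours with a mean per line followed (edgeR 4.0.16, limma 3.58.1, R 4.3.3), with adjustment over all tested genes. Scripts were tested on simulated data. CPM use TMM-scaled library sizes. The SE is the log2 fold change over the square root of F. Per-kilobase levels use merged exon length. Correlations use log2 CPM with a prior count of 2.

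The markers and the 19 lists beside them were chosen with earlier results of these data known. For each list and comparison the rule for named genes took up to 2 called genes per direction with the largest change, at a mean of at least 1 CPM in a compared line, and the highest gene not called. It also took Ptprc and, for likeness, the 3 genes of highest r. A gene selected in 1 comparison may be given in others. Not all selected genes are named, and listed genes not called are given no fold change, so those named are no balanced draw. Trbc1, H60b, Cd3d, Cd247, Cd79b, Raet1e and Cxcl10, drawn in figures, were chosen after values were seen. Part of the genotypes, and the counts of the gamma-delta T cell list, are not reported here. Alternatives were DESeq2 1.42.0 and its size factors, no filter, removal of seminal vesicle genes, pan-leukocyte scaling, fits of the compared lines alone and left-out replicates.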

Additional observations from a re-analysis of the deposited data

Results flagged for a closer look

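Cd3e in CP2 replicate 4 stood at 0.186 CPM, from 4 counts, while the other 3 CP2 tumours had 0 counts, so this tumour lay far from the rest of its group. With 3 tied zeros any single count above 0 stands apart in this way, so nothing can be read from it. At 4 counts the value lies close to the limit of 3 counts in that library, 0.14 CPM.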

How the results depend on the processing

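Over 19 alternative settings, 419 of the markers' fold changes kept their direction and their side of the threshold, 22 passed it newly, 10 no longer passed it and 3 changed sign. Those 3 were Cd4 in CP2 against P1 (-0.0943 when scaled to the pan-leukocyte list without Cd52 and Cd53, an alternative chosen after seeing the data), Cd79a in CP2 against CP1 (2.08 without CP1 replicate 1, and -0.892 to 2.08 over all single replicates left out) and Il2rb in CP1 against P1 (0.0291 with P1 replicates 1 and 2 left out). None of the 3 was called in either form. The cause was not tested.

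Markers called higher in CP2 against P1 numbered 2 in place of 1 when only the compared lines were fitted, with P1 replicates 1 and 2 left out, with CP1 replicates 2 and 3 left out and with DESeq2's Wald test, and 1 to 3 when 1 replicate was left out, 3 without P1 replicate 2. Markers called lower in CP2 against P1 numbered 0 in place of 2 with P1 replicates 1 and 2 left out, and 1 to 3 when 1 replicate was left out. Markers called lower in CP1 against P1 numbered 3 in place of 5 with CP1 replicates 2 and 3 left out, and 5 to 7 when 1 replicate was left out. That setting, which leaves out the tumours with most uroplakin RNA, also ended the calls of Klrk1 (-2.17) and Cd8a (-3.13) in CP1 against P1. The call of Cd4 in CP2 against CP1 (0.86) was lost there too. Among other genes named, the setting ended the calls of Klrd1, Ighm, Jchain, Klra4 and Trdc in CP1 against P1, and of Il15 in CP2 against P1. In CP2 against CP1 it ended those of Pou2af1, Spib, Trdc, Cxcl9, Cxcl11, Ulbp1 and Ptprc. Leaving out P1 replicates 1 and 2 removes the tumours with most seminal vesicle RNA. Over all lists, genes called higher in CP1 against P1 fell from 24 to 15 with P1 replicates 1 and 2 left out. With CP1 replicates 2 and 3 left out, those called lower in CP1 against P1 fell from 80 to 47 and those called higher in CP2 against CP1 from 57 to 37. Those called lower in CP2 against CP1 numbered 65 in place of 39 under pan-leukocyte scaling without Cd52 and Cd53.

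Pan-leukocyte scaling moved the median of all genes by 0.28, 0.13 and -0.15 in CP1 against P1, CP2 against P1 and CP2 against CP1. The calls were then 3253 higher and 2004 lower, 3448 and 3013, and 1454 and 2646, where the main scaling gave 3953 and 3954, 4986 and 5013, and 3764 and 3871. Without Cd52 and Cd53 the shifts were 0.28, -0.29 and -0.57 and the calls 4410 and 2404, 2443 and 5897, and 1214 and 8217. With CP1 replicates 2 and 3 left out, 4161 genes were called in CP2 against CP1, in place of 7635. Of 54 mean levels under other scalings, 1 moved by more than 1 SD (Cd4 in P1, 3.42 CPM with seminal vesicle genes removed). No paired analysis was possible because the replicate numbers only name samples in accession order. A lone tumour left in a line is assumed to vary like the others. Depth limits Cd3e, Cd8a, Cd79a and the CP1 values of Ncr1, Nkg7 and Gzma, where 1 count is worth up to 0.0405 CPM in CP1. The ratios with 1 tumour left out were added after seeing the data. Limits of a few counts cover counting error only.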

Other observations

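Innate lymphoid cells of types 2 and 3 are relatives of NK cells that do not kill. Of 8 tested genes of their list, 2 were called higher and 2 lower in CP1 against P1, 3 higher and 1 lower in CP2 against P1, and 2 higher and 2 lower in CP2 against CP1 (edgeR's quasi-likelihood test). In the same comparisons 22.4%, 28.3% and 21.3% of all tested genes were called higher and 22.4%, 28.4% and 21.9% lower. Il13, a type 2 cytokine that mast cells and T cells also make, stood at 6.08 CPM on average in CP1, 0.298 CPM in P1 and 0.158 CPM in CP2, and was higher in CP1 than in P1 by log2 4.36 ± 0.49 (adjusted p = 6.751e-05). Il1rl1, the receptor of interleukin 33, which mast cells carry too, stood at 81.1 CPM in CP2, 9.88 CPM in P1 and 4.51 CPM in CP1, and was higher in CP2 than in P1 by 3.04 ± 0.54 (adjusted p = 8.748e-04). Of 8 mast cell genes, 0 were called higher and 3 lower in CP1 against P1, and 1 higher and 5 lower in CP2 against P1, with summed levels of 62.9 to 129, 47.5 to 72.1 and 77.2 to 96.3 CPM in P1, CP1 and CP2. Their part in the Il13 and Il1rl1 differences was not tested.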
